A study of Mus musculus with 2 samples.

Results

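Distal intronic peaks are regions of open chromatin inside introns, away from any promoter. Open chromatin was mapped by ATAC-seq, which marks DNA that a transposase can reach. The cells were undifferentiated mouse embryonic stem cells (ESCs), E14 cells that were wild type (WT) and ESCs that lacked Uhrf1 (Uhrf1 KO). Both were grown with leukemia inhibitory factor on plates coated with gelatin or with mouse embryonic fibroblasts. From each genotype 50000 cells were lysed and 1 library was made. A difference between the lists is therefore a difference between 2 libraries, has no replicate error and was not tested as an effect of the genotype. A peak was taken when its centre lay more than 2 kb from every GENCODE vM1 transcription start site (TSS), inside the body of a protein-coding gene and outside every exon, on an autosome. Peaks whose central 200 bp had a GC content of 55% or more together with an observed over expected CpG ratio of 0.6 or more, as in CpG islands, were left out. This gave 18499 distal intronic peaks of 133554 peaks in all, 9396 of 71914 in WT and 9103 of 61640 in Uhrf1 KO ESCs. They made up 13.5% of the 69440 autosomal WT peaks and 15.4% of the 59218 autosomal KO peaks.

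Introns of mammalian genes hold many enhancers, short stretches that transcription factors open and that can act on the host gene or on a gene farther away. In ESCs such elements are often bound by Oct4, Sox2, Klf4 and Esrrb, and many lie in DNA with few CpG sites that is partly methylated. Uhrf1 binds hemimethylated DNA behind the replication fork and brings in Dnmt1, so that ESCs without it lose most DNA methylation.

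The cell type was looked at first, by the peaks around marker genes. All 9 ESC markers found by symbol in the annotation (Pou5f1, Sox2, Nanog, Esrrb, Klf4, Prdm14, Zfp42, Dppa3 and Tdgf1) had a peak within 10 kb of the gene in both libraries. They held 76 WT and 56 KO peaks in all, led by Esrrb with 15 and 13. A peak within 2 kb of a TSS was listed for all 9 in WT and for 8 in KO, where Prdm14 had none. Of 11 fibroblast markers, which would show feeder cells, 10 had a peak in WT and 10 in KO, with 43 and 32 peaks in all. Twist1 held the most in WT, with 9 WT and 6 KO peaks, and Col1a1 and Col1a2 also held 6 KO peaks each. Postn held none in either. Promoter peaks were listed at 9 of the 11 in WT and 8 in KO. Such promoter peaks were common. Of genes with introns that could hold a distal intronic peak, 11548 had one in WT and 4343 had none. In KO the numbers were 10706 and 5185. These lists give positions and not levels, so a peak at a marker gene of ESCs or fibroblasts does not show which cells were present. The part of feeder cells in the results was not tested.

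Distal intronic peaks were about as numerous in Uhrf1 KO as in WT ESCs, although the KO list was shorter. The ratio of KO to WT peaks was 0.969 for distal intronic peaks and 0.853 for all autosomal peaks. The ratio was higher for distal intronic than for all peaks on 18 of 19 autosomes. Chromosome 8 stood apart. There, 850 distal intronic peaks of WT (exact 95% Poisson interval 794 to 909) faced 471 of KO (429 to 516), a ratio of 0.554, while the other 18 autosomes ranged from 0.909 to 1.14 with a median of 0.993. Over all its peaks chromosome 8 had a ratio of 0.641. Without chromosome 8 the ratio of distal intronic peaks was 1.01 (8632 KO and 8546 WT peaks). With the lower 50% of the name numbers in each list it was 1.11 (1.06 to 1.17), so which list held more depends on the setting. What set chromosome 8 apart was not tested.

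Intergenic peaks 2 to 50 kb from a TSS, chosen with the same limit on GC and CpG content, had a like ratio of 1.00 (10922 KO and 10917 WT peaks). Distal exonic peaks were fewer and had a lower ratio, 0.656 (760 and 1158 peaks). On all 19 autosomes the ratio was higher for distal intronic than for distal exonic peaks, and on 8 of 19 it was higher than for intergenic peaks. Distal exonic peaks were also richer in GC, as given below, and the part of GC content in their lower ratio was not tested.

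Introns that could hold such a peak were measured with a point every 1 kb, classified by the same rule. They made up 32.5% of the autosomal genome and held 12.1 WT and 11.7 KO peaks per Mb. Intergenic sequence 2 to 50 kb from a TSS held 16.8 WT and 16.8 KO peaks per Mb. Peaks thinned out with distance from the nearest TSS, from 15.6 per Mb (interval 14.9 to 16.4) in WT and 14.6 per Mb (13.9 to 15.3) in KO at 2 to 5 kb to 7.84 (7.29 to 8.43) and 7.92 (7.36 to 8.51) beyond 100 kb. WT and KO values lay close together at every distance. The median distance was 16201 bp in WT and 16632 bp in KO. The first intron held 27.9% of WT peaks (95% exact binomial interval 27.0% to 28.8%) and 28.6% of KO peaks (27.6% to 29.5%), and 25.4% of the eligible sequence.

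Genes with an open promoter held more of these peaks. A promoter was counted as open where a peak lay within 2 kb of a TSS of the same gene. Of 11548 genes with an open promoter in WT, 29.9% held a distal intronic WT peak, against 17.5% of 4343 genes without one. In KO the shares were 30.1% of 10706 genes and 18% of 5185 genes. Per Mb of eligible intron the difference was smaller, with 12.3 (12.1 to 12.6) against 10.9 (10.3 to 11.6) peaks in WT and 12.1 (11.9 to 12.4) against 10.2 (9.68 to 10.7) in KO.

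A large share of distal intronic peaks had no counterpart in the other library. A peak was called shared when any peak of the other library lay within 100 bp, and otherwise WT-only or KO-only. WT-only were 3924 WT peaks (41.8%, interval 40.8% to 42.8%), where 32.2% of all autosomal WT peaks were WT-only. KO-only were 3717 KO peaks (40.8%, 39.8% to 41.9%), where 24.4% of all autosomal KO peaks were KO-only. Both shares were higher than those of all peaks on 19 of 19 autosomes. The KO share lay farther above its background, by a median of 16.3 percentage points over the autosomes, and the WT share by 9.83. Among intergenic peaks 38.1% were WT-only and 39.1% KO-only, and among distal exonic peaks 51.0% and 28.9%. No interval here holds more than the error of counting, and peaks that lie side by side do not count as independent.

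Divided by each other, the numbers of WT-only and KO-only peaks gave 1.06, which did not hold in every setting. Chromosome 8 alone had 57.1% WT-only and 29.9% KO-only peaks, where 43.6% and 17.1% of all its peaks were. The ratio there was 3.44 for distal intronic peaks and 3.98 for all peaks. Without chromosome 8 the ratio of distal intronic peaks was 0.962. With the lower 50% of the name numbers in each list it was 0.771 (0.712 to 0.835). With as many WT as KO peaks on each autosome, taken by the lowest numbers in the peak names, 2477 of 7229 WT and 4333 of 9103 KO distal intronic peaks were unshared, a ratio of 0.572. That choice shortens only the WT list, so it can only lower this ratio, and nothing is read from it.

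Where peaks were shared, their positions were close. The nearest peaks of shared pairs had centres a median of 14 bp apart in both directions, and 42.9% of shared WT peaks had a KO centre within 10 bp. In 98.3% of shared WT peaks the nearest KO peak was itself a distal intronic peak. The peak names end in a number that counts within each chromosome, and peaks with low numbers were shared more often, so the number was used as a rank. Distal intronic peaks had high numbers. The fifth of the list with the lowest numbers held 6.96% of WT and 9.52% of KO distal intronic peaks, and 98.8% and 95.8% of these were shared. The fifth with the highest numbers held 30.2% and 27.7%, and 36.1% and 38.9% of these were shared. The shared percentages restate the observation for which the number was taken as a rank, so nothing further is read from them.

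KO-only peaks had a lower median GC content than WT-only peaks, with wide overlap. GC content is in part used by the rule. The median GC content of the central 200 bp was 49.5% in KO-only peaks (quartiles 45.5% and 53%), 52.5% in shared peaks of either list and 53.5% in WT-only peaks (49.5% and 57%). All were more GC-rich than eligible introns, whose median was 42.5%. The ratio of KO to WT peaks went down step by step with GC content. It was 1.80 below 40% GC (419 KO and 233 WT peaks), 1.59 from 40% to 45%, 1.18 from 45% to 50%, 0.954 from 50% to 55%, 0.746 from 55% to 60% and 0.625 from 60% (766 and 1226 peaks). Without chromosome 8 the same steps ran from 1.78 to 0.640. The KO-only share followed the same order, from 58.7% (interval 53.8% to 63.5%) of KO peaks below 40% GC to 16.3% (13.8% to 19.1%) from 60%. The WT-only share went the other way at first, from 25.3% (19.9% to 31.4%) below 40% to 47.0% (44.9% to 49.0%) at 55% to 60%, and was 40.4% (37.6% to 43.2%) from 60%. The rule had left out 633 WT and 392 KO peaks rich in GC and CpG, so the CpG content of the rest is partly set by it, with a median observed over expected ratio of 0.224 for WT-only peaks, 0.181 for KO-only peaks and 0.155 for eligible introns. Intergenic peaks had the same order, with a median GC content of 49% in the KO-only and 53% in the WT-only class. Distal exonic peaks were richer in GC, with medians of 53% in the KO-only and 57.5% in the WT-only class. The part of base composition in which peaks were listed was not tested.

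KO-only peaks more often lay in repeated sequence. The 31 bases at the centre occurred more than once in the genome in 14.6% of KO-only peaks (interval 13.5% to 15.8%), 11.5% of shared KO peaks (10.6% to 12.4%) and a lower 6.35% of the WT-only class (5.60% to 7.15%). At 10 copies or more the shares were 6.89% in KO-only and 2.65% in WT-only peaks. Without chromosome 8 the shares with more than 1 copy were 14.5% and 6.78%. Among intergenic peaks they were 19% in KO-only and 10.6% in WT-only peaks. Which copy of a repeated sequence was open cannot be read from the lists. With single-copy centres only, the median GC content was 50% in KO-only and 53.5% in WT-only peaks.

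Peaks with low numbers were often in repeated sequence. Among distal intronic peaks in the lowest 1% of numbers, all 54 WT and all 65 KO peaks were shared. Their central sequence was repeated in 37.0% of WT peaks (interval 24.3% to 51.3%) and 40% of KO peaks (28% to 52.9%), and 35.2% and 33.8% had a GC content below 40%. From 1% to 5% of the numbers, the repeated share was alike, 35.7% of 84 WT and 39.8% of 123 KO peaks, with 98.8% and 99.2% shared, while 9.52% and 13.8% had a GC content below 40%. Over all distal intronic peaks, 9.64% of WT and 12.8% of KO centres were repeated and 2.48% and 4.60% had a GC content below 40%. Several peaks with low numbers resembled mitochondrial DNA. In each list 10 distal intronic peaks held 5 or more words of 19 bases from the mitochondrial genome in the 301 bp around the centre, where 2 of 777750 points in eligible introns did. All 20 were shared peaks, and 17 lay in the lowest 1% of numbers. They lay in introns of Arhgef4, Asxl3, Ccdc162, Myo18b, Nedd4l, Tbx20, Wars2, Zdhhc3 and 5830418K08Rik, with GC contents from 29.5% to 44%. Why these stretches carry low numbers was not tested. The search was chosen after the low-numbered peaks had been seen, and the word length after 3 lengths had been tried, which gave 58 peaks at 15 bases, 20 at 19 and 10 at 25.

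Short motifs of transcription factors were counted in the central 200 bp, on both strands, beside windows of the same length 1 kb away and beside eligible introns. The motif of Klf factors, GGGTGTGG, was held by 5.34% of WT peaks (interval 4.9% to 5.82%) and 5.10% of KO peaks (4.65% to 5.57%), against 1.65% and 1.58% of flanks and 1.28% of eligible introns. It was similar in WT-only (5.33%), shared WT (5.35%) and KO-only peaks (4.71%). The octamer ATGCAAAT of Oct4 was held by 2.42% of WT (2.11% to 2.75%) and 2.5% of KO peaks (2.19% to 2.85%), against 1.26% and 1.43% of flanks and 1.49% of eligible introns. WT-only (2.14%), shared WT (2.61%) and KO-only peaks (2.34%) had overlapping intervals. At 45% to 55% GC the octamer was held by 3.25% of shared WT, 2.72% of WT-only and 1.97% of KO-only peaks. Eligible introns of that GC content held it in 0.797%. The joint motif of Oct4 and Sox2, CATTGT and ATGC with 1 base between them, was rare. It was held by 9 of 5472 shared WT, 9 of 5386 shared KO, 8 of 3924 WT-only and 0 of 3717 KO-only peaks. Among eligible introns 0.0346% held it. The interval for 0 peaks reaches 0.0992% and that for WT-only peaks starts at 0.0881%, so the intervals overlap. The motif of Esrrb, TCAAGGTCA, was held by 0.553% of WT and 0.428% of KO peaks, near the 0.484% of eligible introns.

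CTCF, Gata and Sox motifs differed between WT-only and KO-only peaks. The core of the CTCF motif, AGGNGGCAG, was held by 8.05% of WT-only peaks (interval 7.22% to 8.95%), 6.62% of shared WT peaks and 3.71% of KO-only peaks (3.13% to 4.37%), against 1.59% of eligible introns. CTCF binds DNA at the borders of chromatin loops, and its binding at some sites is blocked by methylation. The Gata motif AGATAAG was held by 4.20% of KO-only peaks (3.57% to 4.89%), 2.17% of shared WT and 1.73% of WT-only peaks (1.35% to 2.19%), against 2.89% of eligible introns. The Sox motif CATTGT was held by 14.9% of KO-only (13.8% to 16.1%), 12.0% of shared WT and 9.35% of WT-only peaks (8.46% to 10.3%), against 11.8% of eligible introns. These motifs are themselves rich or poor in GC, so they were also counted within bands of GC content, a step chosen after seeing the data. At 45% to 55% GC the CTCF core was held by 7.24% of WT-only and 3.98% of KO-only peaks, the Gata motif by 2.14% and 4.20% and the Sox motif by 11.4% and 15.3%. At 55% GC or more the values were 9.58% and 5.56% for the CTCF core, 1.31% and 3.17% for Gata and 5.70% and 8.10% for Sox. At 55% GC or more the intervals overlap for Gata (0.816% to 2.00% and 1.95% to 4.86%) and for Sox (4.61% to 6.95% and 6.09% to 10.5%). Below 45% GC the values were 5.22% of 268 and 1.5% of 802 for the CTCF core, 1.12% and 4.99% for Gata and 15.3% and 19.3% for Sox, where the intervals overlap (11.2% to 20.2% and 16.6% to 22.2%). Eligible introns held the Sox motif in 13.7% below 45% GC, 9.45% at 45% to 55% and 5.46% at 55% or more. In no band was the WT-only share of the Sox motif below that of introns, unlike in all bands together. The part of GC content in the motif shares was not tested.

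The AP-1 motif TGACTCA was held by 6.75% of KO-only peaks (5.97% to 7.61%), 5.73% of WT-only peaks (5.03% to 6.51%) and 4.97% of shared WT peaks, against 3.32% of eligible introns. The YY1 motif AAGATGGCG was held by 0.95% of shared WT, 0.561% of WT-only and 0.377% of KO-only peaks, against 0.120% of eligible introns. Many of these lay in repeated sequence. Their centres were repeated in 30.8% of 52, 40.9% of 22 and 28.6% of 14 peaks, against 12.0%, 6.35% and 14.6% over each class. The motifs of NRF1, CREB and Banp, whose factors avoid methylated CpG, were rare in every class. The NRF1 motif CGCATGCG was held by 16 WT-only (0.408%), 11 shared WT (0.201%) and 7 KO-only peaks (0.188%), against 0.0375% of eligible introns. Centres were repeated in 0, 4 and 2 of these. The CREB motif TGACGTCA was held by 12 (0.306%), 28 (0.512%) and 14 (0.377%), against 0.112%. The Banp motif TCTCGCGAG was held by 1 WT-only peak and no KO peak. The E-box CACGTG was held by 3.72% of WT-only, 3.69% of shared WT and 3.66% of KO-only peaks, against 2.22% of eligible introns. A match describes the letters in a window and does not show that the factor was bound.

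The sequences of single members show what these windows look like. For each motif shown, the shared pair with the lowest numbers in both lists was taken, among peaks with a single-copy centre, and the WT peak is printed on mm9 with the motif of either strand in capitals. Where the motif lies outside the listed interval, the central 200 bp are printed. The first 3 hold motifs of pluripotency factors, and the Zdhhc3 peak is one of those that resemble mitochondrial DNA.
Zdhhc3, chr9:123016438-123016538, plus strand: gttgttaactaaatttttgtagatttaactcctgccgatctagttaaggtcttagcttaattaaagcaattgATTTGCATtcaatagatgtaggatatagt
Fbxl17, chr17:63525884-63525984, plus strand: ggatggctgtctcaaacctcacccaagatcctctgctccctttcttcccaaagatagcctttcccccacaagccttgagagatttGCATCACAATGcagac
Chl1, chr6:103599109-103599209, plus strand: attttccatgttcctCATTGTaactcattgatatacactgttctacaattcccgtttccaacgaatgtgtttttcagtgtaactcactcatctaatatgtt
The next 3 hold the CTCF core and the Gata motif, which differed between WT-only and KO-only peaks, and the YY1 motif, which few peaks hold.
Gm3752, chr14:8320047-8320147, plus strand: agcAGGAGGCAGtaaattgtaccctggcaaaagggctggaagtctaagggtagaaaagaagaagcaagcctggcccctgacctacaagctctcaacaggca
Spnb2, chr11:30061168-30061367, plus strand: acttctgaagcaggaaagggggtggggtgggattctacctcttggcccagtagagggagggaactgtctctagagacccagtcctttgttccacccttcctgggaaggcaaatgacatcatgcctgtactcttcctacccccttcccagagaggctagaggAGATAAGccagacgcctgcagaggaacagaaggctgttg
Smyd3, chr1:181327987-181328087, plus strand: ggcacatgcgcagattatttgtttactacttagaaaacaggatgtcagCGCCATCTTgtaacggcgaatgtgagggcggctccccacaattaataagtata
The CREB motif, with a CpG at its centre, is shown in a shared peak and, under the same limits, in the KO-only peak with the lowest number. These sequences resemble each other in opposite orientation, although each centre occurs once in the genome.
Plcl2, chr17:50804771-50804871, plus strand: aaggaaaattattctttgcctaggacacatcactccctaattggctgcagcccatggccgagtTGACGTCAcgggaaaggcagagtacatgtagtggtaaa
Poteg, chr8:28581933-28582033, plus strand: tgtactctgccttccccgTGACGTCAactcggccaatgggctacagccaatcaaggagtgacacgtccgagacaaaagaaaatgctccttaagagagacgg

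The peaks lay in 5224 of 15893 protein-coding genes with eligible introns. WT peaks lay in 4216 genes and KO peaks in 4158, and 3150 genes held peaks of both. Genes with peaks of WT alone numbered 1066, of which 864 held 1 peak, and genes with peaks of KO alone 1008, of which 819 held 1 peak. The 348 genes with 10 or more peaks of both lists together held 5519, counting a peak once for each host gene.

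The genes with the most peaks were long. Gm20388, a gene model of 4435 kb on chromosome 8 (122434741 to 126869622) that spans 72 other protein-coding genes, held 124 WT and 61 KO peaks, 80 and 40 of them in no other protein-coding gene. The Fgfr2 model of 3009 kb on chromosome 7 spans 31 other genes and held 44 and 25 peaks, 15 and 7 of them in no other gene, so that most cannot be given to this receptor of fibroblast growth factors. Macrod2, which codes for an enzyme that removes ADP-ribose, held 28 and 28. Tns3, a tensin of focal adhesions, held 20 and 25 in a gene of 233 kb. Pde4d, a phosphodiesterase of cAMP, held 23 and 21, the phosphatase-like Ptprn2 held 21 and 23, the postsynaptic scaffold gene Dlgap1 19 and 23, and Dst, which codes for a linker of the cytoskeleton, 21 and 15. Among the 10 genes with the most peaks, the Poisson intervals of WT and KO were apart for Gm20388 alone.

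Xkr4 and Sntg1, at the start of chromosome 1, also ranked among these genes, with 40 WT and 41 KO and with 16 and 21 peaks. Their peaks were poor in GC, with medians of 39% and 43.5%. In the first 10 Mb of chromosome 1, 44.5% of 182 distal intronic peaks had a GC content below 40%, against 3.12% of 18317 others. The lists also placed 145 WT and 130 KO peaks in the first 3 Mb of this chromosome, which is unsequenced in mm9. How those positions came about was not tested, so the counts of Xkr4 and Sntg1 are in doubt. Without these 10 Mb the ratio of distal intronic peaks was 0.967, and KO-only peaks had a median GC content of 49.5%, as before.

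The 5 genes with the largest excess of KO peaks were read next. Magi2, a scaffold of synapses, held 7 WT (interval 2.81 to 14.4) and 19 KO peaks (11.4 to 29.7), of which 2 were WT-only and 11 KO-only, against 41.8% and 40.8% over all distal intronic peaks. Agbl4, a carboxypeptidase that trims glutamate chains of tubulin, held 10 and 20, and Lrrc4c, which codes for a ligand of netrin-G1, held 3 and 13. Etl4 held 12 and 20, and Auts2, whose product joins a Polycomb complex in neurons, held 4 and 12. For Magi2, as for each of the others in this group, the intervals of the 2 counts overlapped. The largest excess of WT peaks after Gm20388 and Fgfr2 was in genes of chromosome 8. Zfhx3, a homeobox transcription factor gene, held 14 WT (7.65 to 23.5) and 2 KO peaks (0.242 to 7.22), intervals that do not overlap. Cacna1a, which codes for a neuronal calcium channel, held 13 and 2, and the oxidoreductase gene Wwox 13 and 3. Outside chromosome 8, Fgfr2 was followed by the presynaptic Nrxn3 with 18 and 10, the zinc transporter gene Slc39a11 with 17 and 9, the axon guidance gene Slit3 with 20 and 13, and Nmnat2, an enzyme of NAD synthesis, with 13 and 6. These genes were named for their differences, so the counts describe them and support nothing further.

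Genes of 13 lists were then read by their role. Of 172 listed genes found by symbol, 49 held distal intronic peaks of both libraries and 103 held none. Of the 15893 genes with eligible introns, 3150 held peaks of both and 5224 held any. Some listed genes, among them Pou5f1 and Sox2, had no measured point of eligible intron, so these counts refer to unlike sets of genes. In the lists below, counts of WT-only and KO-only peaks stand against shares of 41.8% and 40.8% over all distal intronic peaks. Among 16 pluripotency factor genes, 4 held any, with 15 WT (8.40 to 24.7) and 10 KO peaks (4.80 to 18.4). Esrrb, a nuclear receptor of the naive state, held most of them. Its gene on chromosome 12 (87702067 to 87862578, plus strand) held 10 WT and 7 KO peaks, and all but 1 WT peak were shared. Nr5a2, another nuclear receptor, held 2 and 3, Zfp42 on chromosome 8 held 2 and 0, and Prdm14 1 and 0. In the second intron of Esrrb the 200 bp window of a shared WT peak from 87819998 to 87820098 held the octamer, outside the listed interval, and in the third intron the windows of 3 neighbouring WT peaks held the Esrrb motif. Windows of KO peaks held both motifs as well, at 87819999 to 87820099 and at 87842597 to 87842697. A WT window of each is printed with the motif in capitals, chosen after its values had been seen.
Esrrb, chr12:87819948-87820147, plus strand: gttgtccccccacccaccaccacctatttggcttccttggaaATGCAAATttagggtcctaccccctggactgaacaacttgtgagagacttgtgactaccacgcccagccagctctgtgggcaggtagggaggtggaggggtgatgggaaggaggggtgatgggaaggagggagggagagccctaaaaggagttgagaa
Esrrb, chr12:87842638-87842837, plus strand: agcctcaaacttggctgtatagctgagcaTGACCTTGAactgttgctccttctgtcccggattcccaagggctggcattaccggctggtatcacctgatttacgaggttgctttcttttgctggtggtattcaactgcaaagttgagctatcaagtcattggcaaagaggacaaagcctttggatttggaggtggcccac

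Genes of the formative and primed states held 10 WT and 14 KO peaks in 6 of 12 genes. Tcf7l1, a repressor of Wnt target genes in ESCs, gave most of the KO peaks, with 4 WT and 10 KO peaks on chromosome 6 (72576372 to 72739248, minus strand). Its 4 WT peaks were all shared, and 6 of its 10 KO peaks were KO-only, where 40.8% of all distal intronic KO peaks were. Some of those 6 lay side by side, between 72703828 and 72704078, so they stand for fewer separate sites. Of the 6, 2 held the octamer in the 200 bp window, in the fourth and the third intron, where 2.34% of all KO-only peaks did. These 2 are shown on the plus strand for this reason. Lef1, an activator of the same pathway, held 3 WT-only peaks and 1 KO-only peak. Dnmt3a held 1 WT-only peak, Fgf5 held 1 shared KO peak, and Cdh2 and Sall3 held 1 peak of each library.
Tcf7l1, chr6:72597462-72597562, plus strand: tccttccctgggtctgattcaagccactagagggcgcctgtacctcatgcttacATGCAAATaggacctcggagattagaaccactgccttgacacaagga
Tcf7l1, chr6:72708406-72708605, plus strand: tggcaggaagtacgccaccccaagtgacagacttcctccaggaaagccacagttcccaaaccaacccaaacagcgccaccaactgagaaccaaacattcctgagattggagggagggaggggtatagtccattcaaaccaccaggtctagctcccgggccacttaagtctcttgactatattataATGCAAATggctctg

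Genes related to DNA methylation and its removal held 8 WT and 9 KO peaks in 5 of 13 genes. Among the Tet genes, whose enzymes oxidise methylcytosine, Tet1 held 3 WT and 2 KO peaks in its first intron and Tet2 4 and 5 in its first intron, of which 2 were WT-only and 3 KO-only, and Tet3 held 1 KO-only peak. Dnmt1, the maintenance methyltransferase that Uhrf1 recruits, held 1 KO-only and no WT peak. Genes of the COMPASS complexes, which methylate histone H3 at lysine 4, held few, with 2 WT and 1 KO peaks in 13 genes. Setd1b and Cxxc1 each held 1 WT-only peak and Dpy30 1 KO-only peak. Polycomb genes held 8 WT and 9 KO peaks in 6 of 21 genes. Eed, a core subunit of PRC2, held 2 and 2, all shared, Kdm2b, which brings PRC1 to CpG islands, held 1 and 3, and Cbx7 held 3 and 1.

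Of the signalling genes, 4 of 12 in the FGF pathway held peaks of both libraries. Leaving out Fgfr2 for its gene model, the list held 12 WT and 12 KO peaks. Fgfr1 on chromosome 8 (26624126 to 26686186) held 7 and 5, all in its second intron, with no KO-only peak. Etv5, an ETS factor gene that FGF signals activate, held 3 and 3, and Sos1, an exchange factor of Ras, 2 and 3, all shared. In the LIF pathway Lifr, Jak1 and Jak2 each held 1 and 1. In the Nodal and BMP pathway, 5 of 19 genes held 3 WT and 5 KO peaks, among them 2 KO-only peaks in the inhibitory Smad7. In the Wnt pathway 6 of 10 genes held 9 and 7, with Lrp6 and Tcf7l2 at 2 and 2 each. These counts are too small to set the libraries apart.

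Of the developmental genes, regulators of mesoderm and heart held 5 WT and 7 KO peaks in 3 of 12 genes. Mef2c, a muscle and heart factor gene, held 3 and 5, with 2 neighbouring KO-only peaks in its second intron, and Tbx5 held 1 and 2, all shared. Genes of the neuroectoderm held 23 WT (14.6 to 34.5) and 17 KO peaks (9.90 to 27.2) in 7 of 11 genes. The homeobox genes Meis1 and Meis2 held 4 and 5 each, and the adhesion gene Ncam1 held 3 WT-only peaks, 1 of them at a repeated sequence. Nes held 1 and 1 without a promoter peak in either library. Germ line genes held 2 and 2 in 2 of 12 genes, Sycp1 and Stk31.

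A list of 16 long genes, many of them neuronal, held 168 WT (144 to 195) and 199 KO peaks (172 to 229), counts with overlapping intervals. There were more KO than WT peaks in 11 genes and fewer in 3. Among the 11 was Park2, with 0 and 1, whose 97 kb of eligible intron were the least on the list. Outside chromosome 8, where Wwox and Csmd1 lie, 14 genes held 143 (121 to 168) and 184 (158 to 213), which also overlap, in a selection made after seeing the data. In these 14 genes 23.8% of the WT peaks were WT-only (interval 17.1% to 31.6%) and 44.0% of the KO peaks KO-only (36.7% to 51.5%). Over all distal intronic peaks without chromosome 8 the shares were 40.2% and 41.4%, so the WT-only share was lower here and the KO-only share was near that of all. In all 16 genes the shares were 28.6% and 43.2%. Cntnap2 and Lrp1b each held 12 and 18, Ptprd 7 and 13, Csmd3 8 and 13, and Ctnna2 9 and 13. Nrxn3 held fewer in KO, 18 and 10. Peaks were sparse in the 16 genes, at 7.59 per Mb in WT and 8.99 per Mb in KO. Their introns were poor in GC, with a median of 38.5%, and so were their peaks, with medians of 48% in WT and 47% in KO. The part of GC content in these counts was not tested.

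Peaks just outside the limit on distance were shared somewhat more often than those just inside, a difference that was not tested. At 2 to 2.5 kb from a TSS, inside the rule, 56.3% of 343 WT and 58.9% of 316 KO peaks were shared, and at 1.5 to 2 kb, outside it, 61.6% of 425 and 67.9% of 377. Of peaks with a GC content of 55% or more, 57.7% of 414 WT and 85.9% of 248 KO peaks were shared at CpG ratios from 0.5 to 0.6, and 57.6% of 278 and 90.6% of 170 at ratios from 0.6 to 0.7, which the rule left out.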

How the data were processed

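ATAC-seq peak lists of 1 WT and 1 Uhrf1 KO library were analysed. The deposited files give positions and names on mm9 and a score of 1 for every peak. The submitters' processing notes name Bowtie2 2.1.0, with which the paper states that reads were mapped, and HOMER 4.9.1, whose role is not stated. Positions were compared with Python 3.11.15, numpy 2.4.6, pandas 2.3.3, scipy 1.17.1, pysam 0.24.0 and numba 0.67.0, with exact 95% binomial (Clopper-Pearson) and Poisson intervals. With 1 library per genotype no test was made. Motif letters were matched on both strands. Named genes were the 10 with most peaks, the 5 with the largest KO and WT excess, and genes of 13 lists, of which 6 names were not in the annotation. Members and lists were chosen with earlier results of these data known. Values without the start of chromosome 1, motif shares within GC bands, the mitochondrial words, lists without Fgfr2 or chromosome 8, and the Esrrb and Tcf7l1 sequences were chosen after seeing the data.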

Additional observations from a re-analysis of the deposited data

How the results depend on the processing

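No paired analysis was possible because there is only 1 library of WT and 1 of Uhrf1 KO ESCs. Genotype and library cannot be told apart, and no interval holds the spread between cultures. The lists hold positions without levels, and the threshold behind them is not known.

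An alternative was called the same when it lay within the interval of the main value, or between the quartiles for median GC content. For counts of genes the range was wider, 2100 to 4725 for the 3150 host genes and 32.7 to 73.5 for the 49 listed genes. A ratio that turned direction was called reversed, and any other change moved. Of 168 alternative values, 118 were the same, 45 moved and 5 reversed. Of these, 72 are motif shares, of which 22 moved, and 12 of the 72 are flank windows that serve as background. With the lower 50% of the name numbers in each list, the KO over WT number of distal intronic peaks was 1.11 (reversed), its ratio to all peaks 1.31, the WT-only share 37.6%, the KO-only share 43.8%, WT-only over KO-only 0.771 (reversed), the host genes with peaks of both 1334 and the listed genes with peaks of both 32. With equal list lengths, for which only the WT list is shortened, the shares were 34.3% and 47.6% and their numbers had a ratio of 0.572 (reversed). Without chromosome 8 the KO over WT number was 1.01 (0.980 to 1.04, reversed) and WT-only over KO-only 0.962 (0.917 to 1.01, reversed). Both intervals include equal numbers, so neither reversal exceeds the error of counting. In this setting the WT-only share was 40.2% and the share of WT peaks in first introns 26.9%. With single-copy centres the KO over WT number was 0.935, the WT-only share 43.3% and WT-only over KO-only 1.16.

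With at least 1 bp shared, 44.6% were WT-only and 43.3% KO-only. With at least 50% of both peaks shared these were 53.5% and 52%. With neighbouring peaks merged they were 44.2% and 43.2%, and the ratio to all peaks was 1.09. With GC-rich peaks kept, the KO-only share was 39.6% and WT-only over KO-only 1.11. Beyond 5 kb from TSSs, 25.4% of WT and 25.7% of KO peaks lay in first introns. With the listed interval in place of the 200 bp window, a shorter stretch, all 12 motif shares moved down. In WT and KO these were 1.15% and 1.36% for the octamer, 5.80% and 7.29% for Sox, 3.43% and 3.21% for Klf, 4.9% and 3.36% for the CTCF core, 2.94% and 3.21% for AP-1 and 0.947% and 1.47% for Gata.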
